A study of Mus musculus with 2 samples.

Results

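The axon guidance ligands and receptors described here are the netrins with Dcc and the Unc5 receptors, the Slits with the Robo receptors, the semaphorins with the plexins and neuropilins, and the ephrins with the Eph receptors. They were chosen by gene name in the GENCODE M21 annotation of the mouse assembly GRCm38 (mm10), which gave 69 of 21670 protein-coding genes, 35 of them ligands and 34 receptors. DNase-seq was done on cerebellum of B6CASTF1/J males aged 4 days, first-generation hybrids of the B6 and CAST strains, and no other genotype, treatment or age was included. The labels name 3 males for each library, so a library stands for several animals, and number the 2 libraries as biological replicates 2 and 1 of 1 group. Replicate 1 is labelled with a NovaSeq and a HiSeq instrument, and for replicate 2 none is given in the sources used. With 1 group there was no comparison between conditions, so the promoters and distal sites of these genes were described in each library beside the same measure over all genes. No test was made.

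Growth cones, the moving tips of axons, steer by these cues. Netrin draws axons through Dcc and repels them through Unc5 receptors, Slits repel through Robo receptors, and semaphorins act on plexins, to which the secreted class 3 semaphorins are linked by neuropilins. Ephrins are tethered to membranes and signal on contact, both into the cell that carries the Eph receptor and back into their own. In the cerebellum such cues guide climbing and mossy fibres, the parallel fibres of granule cells and the migration of granule cells themselves, which is under way in the first week after birth.

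DNase I cuts accessible DNA, and stretches with many cuts are called as peaks. A peak value below is the signal that the authors deposited for the peak, normalised by them for depth, and peaks were called in each library alone. A promoter was called open where a peak lay within 500 bp of the start of a protein-coding transcript, and its value is that of the strongest such peak. Footprints are short protected gaps inside open DNA, which the authors also called in each library.

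The sequences that the results turn on are given first, in lower case, with capitals for bases inside footprints called in both libraries. The first set shows the 2 ephrin and Eph promoters that were most open, Ephb3 and Efnb2, and the single open start of Robo1. Each stretch is read 5′ to 3′ on the gene's own strand and ends before the first annotated coding transcript (RefSeq promoter table, GRCm38.p6). Those of Efnb2 and Robo1 lie directly before the RefSeq start, and that of Ephb3 ends 40 bp before it. The Ephb3 stretch is chr16:21204545-21204754 on the plus strand, that of Efnb2 is chr8:8661243-8661492 on the minus strand and that of Robo1 is chr16:72662899-72663148 on the plus strand.
Ephb3 promoter: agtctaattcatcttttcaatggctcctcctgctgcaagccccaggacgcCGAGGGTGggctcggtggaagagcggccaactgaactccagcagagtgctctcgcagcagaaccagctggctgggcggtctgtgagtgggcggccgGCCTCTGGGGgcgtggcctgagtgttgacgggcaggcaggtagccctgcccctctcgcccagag
Efnb2 promoter: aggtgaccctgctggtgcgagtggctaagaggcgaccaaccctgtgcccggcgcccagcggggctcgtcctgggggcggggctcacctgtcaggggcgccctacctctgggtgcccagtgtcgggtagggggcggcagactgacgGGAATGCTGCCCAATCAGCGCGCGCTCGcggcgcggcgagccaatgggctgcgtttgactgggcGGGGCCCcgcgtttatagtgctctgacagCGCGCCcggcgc
Robo1 promoter: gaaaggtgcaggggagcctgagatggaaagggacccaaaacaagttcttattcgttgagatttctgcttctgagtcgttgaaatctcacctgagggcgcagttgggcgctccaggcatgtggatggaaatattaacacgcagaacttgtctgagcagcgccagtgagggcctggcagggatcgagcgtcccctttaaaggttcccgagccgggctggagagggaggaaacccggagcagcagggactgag
The strongest Ephb3 peak reaches into the printed stretch in replicate 2 (to 21204720) and ends just before it in replicate 1 (at 21204540), while the Efnb2 and Robo1 stretches overlap the peaks of both libraries. The Ephb3 stretch held 4 footprints in replicate 2 and 2 in replicate 1, with 18 bases in both, and the Efnb2 stretch held 5 and 4, with 41 bases in both. The Robo1 stretch held 4 footprints in replicate 2 and 0 in replicate 1, so it has no capitals.

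The second set shows a pair of promoters that were rich in CpG and yet had no peak in either library, Efna2 at chr10:80179232-80179481 on the plus strand and Epha8 at chr4:136956817-136957066 on the minus strand (RefSeq promoter table, GRCm38.p6).
Efna2 promoter: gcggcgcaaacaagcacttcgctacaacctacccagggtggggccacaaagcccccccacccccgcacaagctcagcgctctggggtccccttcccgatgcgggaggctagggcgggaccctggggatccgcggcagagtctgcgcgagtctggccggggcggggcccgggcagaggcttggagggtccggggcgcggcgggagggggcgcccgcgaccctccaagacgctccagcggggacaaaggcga
Epha8 promoter: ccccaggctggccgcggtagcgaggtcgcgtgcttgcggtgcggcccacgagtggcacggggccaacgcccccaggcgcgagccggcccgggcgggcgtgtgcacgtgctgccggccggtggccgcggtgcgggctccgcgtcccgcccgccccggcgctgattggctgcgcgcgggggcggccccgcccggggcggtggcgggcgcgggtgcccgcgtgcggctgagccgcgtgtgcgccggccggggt
Neither stretch held a footprint in either library, although 73.6% of the Efna2 bases and 84.0% of the Epha8 bases are G or C, against 72.0% in the open Efnb2 stretch.

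The third set shows distal sites, over 1000 bp from any coding start and open in both libraries, read from the plus strand of GRCm38. They are the strongest such site of Epha4, 1.34 kb before its start at chr1:77516341-77516520, of Ephb2, in an intron at chr4:136678581-136678740, and of Sema5a, in an intron at chr15:32246081-32246280. The Epha4 site overlaps an exon of Gm28386, which is annotated as a lincRNA.
Epha4 distal site: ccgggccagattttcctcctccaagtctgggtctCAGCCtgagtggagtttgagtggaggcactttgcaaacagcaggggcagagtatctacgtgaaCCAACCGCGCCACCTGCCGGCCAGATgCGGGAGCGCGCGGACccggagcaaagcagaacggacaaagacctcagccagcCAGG
Ephb2 distal site: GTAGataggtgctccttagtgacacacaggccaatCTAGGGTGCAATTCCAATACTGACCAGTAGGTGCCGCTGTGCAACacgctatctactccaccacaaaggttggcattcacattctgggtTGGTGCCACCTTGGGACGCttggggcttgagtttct
Sema5a distal site: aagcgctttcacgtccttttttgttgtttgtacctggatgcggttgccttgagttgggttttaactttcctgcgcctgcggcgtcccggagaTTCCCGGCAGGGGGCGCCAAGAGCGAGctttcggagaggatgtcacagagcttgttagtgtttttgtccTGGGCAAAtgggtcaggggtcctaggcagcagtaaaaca
Bases inside footprints of both libraries number 50 in the Epha4 site, 68 in the Ephb2 site and 35 in the Sema5a site. The short sequence AGGTGGC, which with AGGGGGC belongs to the core of the motif of the insulator protein CTCF, is in the capitals of the Epha4 and Ephb2 sites on the minus strand, and AGGGGGC is in the capitals of the Sema5a site on the plus strand. These 2 sequences were added to the search after the footprints were seen. Over all 272 shared distal sites of the guidance loci, AGGTGGC was found on either strand in 14.7% and AGGGGGC in 16.2%, against 12.7% and 13.9% of all 24085 shared distal peaks.

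The libraries stand apart, and the promoters of tissue marker genes differ between them. Replicate 2 has 131518 peaks and replicate 1 has 61896, of which 33.4% and 71.1% overlap a peak of the other library, and the depth in reads is unknown. Genes open in both libraries had higher values in replicate 2 by a median of 1.02 on the log2 scale. Of all genes, 65.0% were open in replicate 2, 59.9% in replicate 1, and 34.0% had no promoter peak in either. Of 16 genes of the granule cell lineage, 13 were open in replicate 2 and 14 in replicate 1. Of 12 Purkinje cell genes, 9 and 10 were open. Their summed values were higher in replicate 2, at 39.2 and 22.2 for the granule lineage and 23.5 and 13.8 for Purkinje cells. In contrast, 7 of 8 microglial genes had no promoter peak in either. For blood vessel cells, 6 of 9 promoters had a peak in replicate 2 and 3 in replicate 1. For the meninges these counts were 4 and 2 of 7, and for the oligodendrocyte lineage 4 and 4 of 8. Astrocyte and Bergmann glia genes were open at 12 of 12 promoters in replicate 2 and 5 in replicate 1, with summed values of 18.1 and 7.05. Forebrain patterning genes were open at 16 of 18 promoters in replicate 2 and 5 in replicate 1, with summed values of 26.3 and 4.61. Hindbrain Hox genes went the other way, with 5 of 15 open in replicate 2 and 9 in replicate 1 and summed values of 4.39 and 10.7, while En2, a factor of the midbrain and cerebellum, was open in both at 1.06 and 1.46. The part of these differences in the results below was not tested, and each result is therefore given for each library. In tissue of many cell types, fewer cells with an open site and less opening in each cell cannot be told apart.

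Most guidance genes had an open promoter. A peak was found in both libraries at 55 of the 69, or 79.7%, against 58.9% of all protein-coding genes. Counted by library, 60 members were open in replicate 2 (all genes, 65.0%) and 56 in replicate 1 (all genes, 59.9%). Another 5 members were open in replicate 2 and not in replicate 1 (all genes, 6.10%), 1 was open in replicate 1 and not in replicate 2 (all genes, 0.974%), and 8 had no promoter peak in either (all genes, 34.0%). All 6 members open in a single library are ligands, with weak peaks of 0.659 to 1.54. Their number is near the share of all genes, so it is not a result about ligands. Of the 34 receptors 29 were open in both libraries, against 26 of the 35 ligands. By family, both libraries were open at 5 of 5 netrin receptors, 2 of 2 neuropilins, 8 of 9 plexins, 12 of 14 Eph receptors, 16 of 20 semaphorins, 6 of 8 ephrins, 2 of 3 Slits, 2 of 4 netrins and 2 of 4 Robo receptors.

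**Figure D1:**
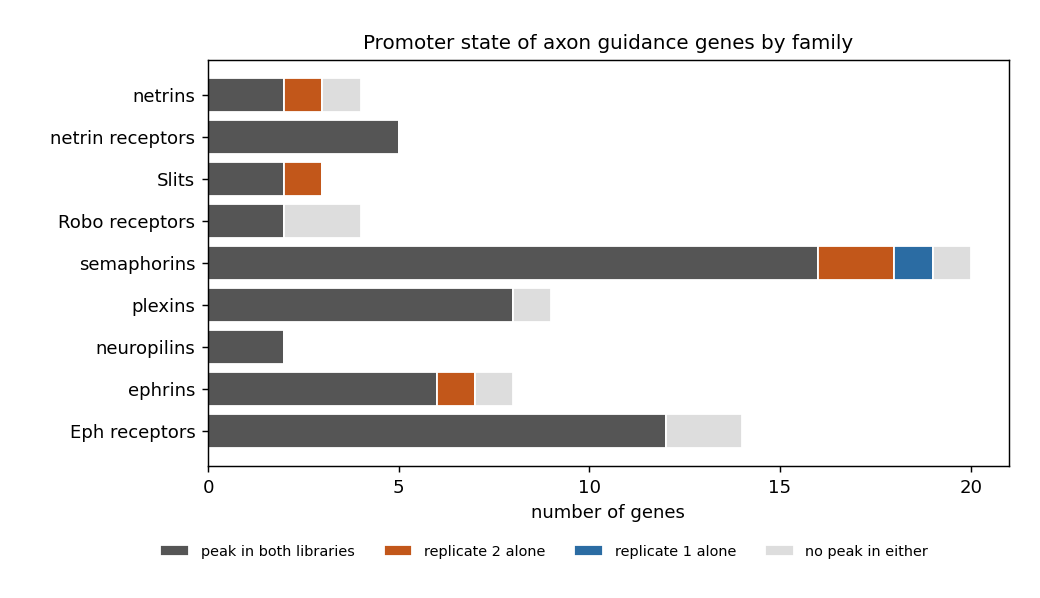
Promoter state of the 69 axon guidance genes by family; the bars count genes (x axis) with a promoter peak in both libraries, in replicate 2 alone, in replicate 1 alone or in neither. The colours for a single library appear only in the rows of ligand families, and the share of such genes is near that of all genes.

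These promoters were open but weak beside all open genes. Ranked among all genes with a promoter peak in the same library, from 0 for the weakest to 100 for the strongest, the 55 members open in both had a median percentile of 34.9 in replicate 2 and 27.1 in replicate 1, against 54.7 and 50.9 for all 12774 genes open in both. At a percentile of 25 or lower stood 13 of the 55 in replicate 2 (all genes open in both, 17.9%) and 27 of the 55 in replicate 1 (all such genes, 23.8%). The median member value was 2.14 in replicate 2 and 1.24 in replicate 1, against 4.00 and 2.11 for all open genes. Low ranks were not particular to guidance genes. Over all members open in a library, the median percentile was 31.1 in replicate 2 and 26 in replicate 1. Purkinje cell genes had 22.9 and 21, the oligodendrocyte lineage 26.3 and 20, and forebrain genes 22.6 and 17.3. Astrocyte and Bergmann glia genes had 10.3 and 35.7. The granule lineage stood higher, at 35.1 and 33.2, as did the 1 open microglial gene, at 46.7 and 40.2. The open stretch was close in length to that of other genes: the widest promoter window of a member held a median of 867 bases with a false discovery rate (FDR) under 0.05 in replicate 2 and 539 in replicate 1, against 844 and 580 for all genes open in both. Median peak widths were 260 and 258 bp at members, against 220 and 220 bp at all such genes.

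Promoters rich in CpG are open more often, and within the CpG-rich classes the guidance promoters also ranked below all genes. Promoters were put in 5 classes of equal size by the ratio of observed to expected CpG around the most upstream coding start. In the class next to the richest, 21 of 22 members were open in both libraries, against 91.9% of all genes, and their median percentile was 46.2 in replicate 2 and 29 in replicate 1, against 60.5 and 56.4. In the richest class 14 of 16 were open, against 96.3%, with median percentiles of 37.8 and 38.4, against 65.8 and 65.1. In the middle class 18 of 22 were open, against 75.3%, with 31.1 and 20.6, against 43.1 and 36. In the class next to the poorest 1 of 4 was open (Robo1), against 24.9%, and in the poorest 1 of 5 (Sema3a), against 6.37%. Both were closed at the most upstream start, where CpG was measured, and open at a start 355 kb and 1.9 kb downstream. These 2 counts therefore do not show an open promoter poor in CpG.

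**Figure D2:**
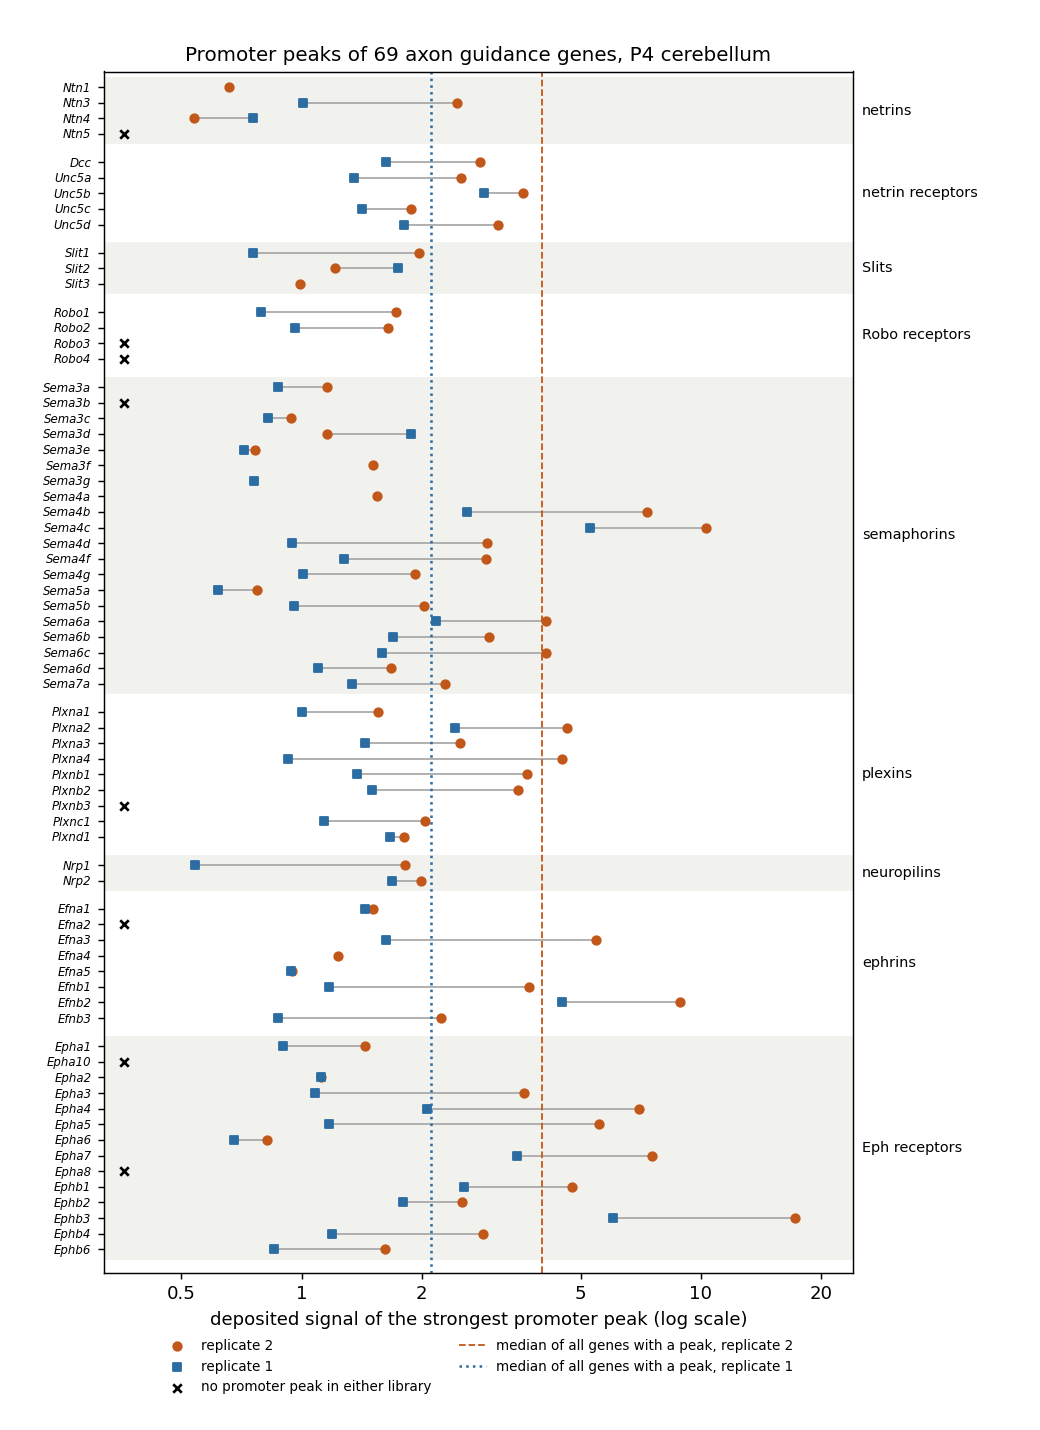
Deposited signal of the strongest promoter peak (log scale) of each guidance gene, by family, with replicate 2 as circles and replicate 1 as squares; crosses mark the 8 genes with no promoter peak. Most points lie left of the medians of all open genes, 4.00 in replicate 2 (dashed line) and 2.11 in replicate 1 (dotted line).

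Netrin receptors were all open in both libraries, while of the netrins Ntn3 and Ntn4 were open in both, Ntn1 in replicate 2 alone and Ntn5 in neither. Ntn1, the founding netrin (chromosome 11, 68209364 to 68400823), had a peak of 0.659 in replicate 2 and none in replicate 1, where its promoter windows also held no interval with an FDR under 0.05. Ntn4, a netrin of basement membranes, had 0.539 in replicate 2 and 0.755 in replicate 1, the weakest of the family, and Ntn3, the strongest, had 2.45 and 1.01. Ntn5 had no promoter peak, but a distal site 1.11 kb before its start was open in both libraries, at 4.00 and 2.90. Dcc, the attractive receptor, had 2.80 in replicate 2 and 1.63 in replicate 1 (2.21 ± 0.831, SD, n = 2). Unc5b was the strongest of the receptors, at 3.58 and 2.87 (3.22 ± 0.501), which is a percentile of 45.9 in replicate 2 and 68 in replicate 1. Unc5c, loss of which lets cerebellar cells stray past the front border of the cerebellum in mice, had 1.88 and 1.42 (1.65 ± 0.328), the lowest of the receptors in replicate 2. Unc5a had 2.50 and 1.35, the lowest in replicate 1, and Unc5d 3.10 and 1.80, so each receptor was higher in replicate 2 and none was above the replicate 2 median of all open genes.

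Of the Slits, Slit1 had 1.97 in replicate 2 and 0.755 in replicate 1, and Slit2 had 1.21 and 1.74, so that their order turned between the libraries. Slit3 (chromosome 11, 35121224 to 35708507) had 0.991 in replicate 2 and no promoter peak in replicate 1. Its promoter windows held 636 bases under an FDR of 0.05 in replicate 2 and 0 in replicate 1. Outside the promoter window, a distal site 1.62 kb before the Slit3 start was open in both libraries, at 2.51 and 1.76. Robo1 and Robo2, the main neuronal Slit receptors, had 1.72 and 1.65 in replicate 2 and 0.793 and 0.961 in replicate 1. Robo3, which sets the crossing of the midline by commissural axons, and Robo4, a receptor of vessels, had no promoter peak in either library. Robo3 was not without signal: its windows held 64 bases under an FDR of 0.05 in replicate 2 and 26 in replicate 1, with a lowest FDR of 3.24e-13 and 0.000242.

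Semaphorins spanned nearly the whole range of the guidance genes. Sema4c, a membrane semaphorin (chromosome 1, 36548639 to 36558349), stood at 10.3 in replicate 2 and 5.28 in replicate 1, percentiles of 89.6 and 96.3, and Sema4b had 7.32 and 2.60. At the other end, Sema5a had 0.772 in replicate 2 and 0.619 in replicate 1 and Sema3e, a ligand of Plxnd1, had 0.765 and 0.716. The secreted class 3 was the weakest class with more than 2 genes: 4 of 7 were open in both, the median of those open in a library was 1.16 in replicate 2 and 0.826 in replicate 1, and none reached 2. Among them Sema3a, the classical repellent, had 1.16 and 0.871, and Sema3d had 1.16 and 1.88.
Of the membrane classes, class 4 and class 6 had higher medians, with 5 of 6 class 4 genes open in both libraries (2.90 in replicate 2 and 1.28 in replicate 1) and 4 of 4 class 6 genes (3.52 and 1.64). Class 5 did not rank above class 3 in both libraries: its 2 genes were open, Sema5a as given above and Sema5b at 2.03 and 0.955, and the class median in replicate 1 was 0.787. Sema6a, which guides migrating granule cells together with Plxna2, had 4.09 in replicate 2 and 2.17 in replicate 1. Sema6d had 1.67 and 1.10, and the lone class 7 gene, Sema7a, had 2.28 and 1.34.
The semaphorins open in a single library were Sema3f at 1.51 and Sema4a at 1.54 in replicate 2, each with no interval under an FDR of 0.05 in replicate 1, and Sema3g at 0.761 in replicate 1 with none in replicate 2. Sema3b had no promoter peak in either.

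Plexins were open with the exception of Plxnb3. Plxna2, the receptor of Sema6a (chromosome 1), was the strongest at 4.63 in replicate 2 and 2.42 in replicate 1 (3.52 ± 1.56, SD, n = 2), and Plxna1 had 1.55 and 1.00, the lowest of the open ones in replicate 2. Plxnb2, which acts in granule cell progenitors, had 3.49 and 1.5 and Plxnb1, the receptor of Sema4d, had 3.67 and 1.38. Sema4d itself had 2.91 and 0.948. Plxna4 stood out by its difference, with 4.50 in replicate 2 and 0.922 in replicate 1, where it was the lowest of the open plexins. Of the neuropilins, Nrp2 had 1.99 and 1.68, and Nrp1, which binds Sema3a, had 1.82 and 0.542, so that they were close to each other in replicate 2 and apart in replicate 1.

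Among the ephrins, Efnb2 was the most open, at 8.88 in replicate 2 and 4.49 in replicate 1, percentiles of 84.3 and 91.7. All 3 B-ephrins, which span the membrane, were open in both libraries, with Efnb1 at 3.71 and 1.17 and Efnb3 at 2.24 and 0.871. Of the 5 A-ephrins, which are held by a lipid anchor, 3 were open in both: Efna3 at 5.45 and 1.63, Efna1 at 1.51 and 1.44, and Efna5 at 0.945 and 0.942. Efna4 had 1.23 in replicate 2 and none in replicate 1, and Efna2 was closed in both. Efna2 is thus the lone closed ephrin although its promoter, printed above, has a CpG ratio of 0.865 and is in the richest class.

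Eph receptors held the strongest promoter of all 69 genes. With 17.2 in replicate 2 and 6.03 in replicate 1, Ephb3 (chromosome 16, 21204755 to 21223305) was first, which put it at the percentiles 99.4 and 98.4. Epha7 had 7.56 and 3.46, Epha4, which binds ephrins of both classes, had 7.01 and 2.06, and Ephb1 had 4.75 and 2.55. Ephb2, a partner of the B-ephrins, had 2.52 and 1.79, below the medians of all open genes. All 5 EphB genes and 7 of 9 EphA genes were open in both libraries. Epha6 was the weakest open receptor at 0.818 and 0.677, and Epha8 and Epha10 had no promoter peak. Epha8 had 17 bases under an FDR of 0.05 in replicate 2 (lowest FDR 0.0395) and 0 in replicate 1, and Epha10 had 165 and 20 bases (0.000266 and 0.0207). Of the 8 members with no promoter peak, 3 thus held such an interval in either library, against 2.88% of the genes with no promoter peak.

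Values were higher in replicate 2 at 52 of the 55 promoters open in both libraries, against 92.6% of all such genes, with a median log2 difference, replicate 2 minus replicate 1, of 0.90 against 1.02. Of the 55, 26 lay inside the quartiles of all genes (0.61 to 1.36), 17 below and 12 above. The largest differences were those of Plxna4 at 2.29, Epha5 at 2.25 (5.55 in replicate 2 and 1.17 in replicate 1), Epha4 at 1.77 and Efna3 at 1.75. Ntn4 at -0.49, Slit2 at -0.52 and Sema3d at -0.69 were higher in replicate 1, and Epha2 (1.12 and 1.12) and Efna5 came next at 0.00. The 3 members higher in replicate 1, a share near that of all genes, are secreted ligands, but they were picked by this same difference. The 4 class 3 semaphorins open in both libraries had a median of 0.14. These shifts moved in the same samples as the forebrain, Hox and glial markers above, and the part of those cells in them was not tested.

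**Figure D3:**
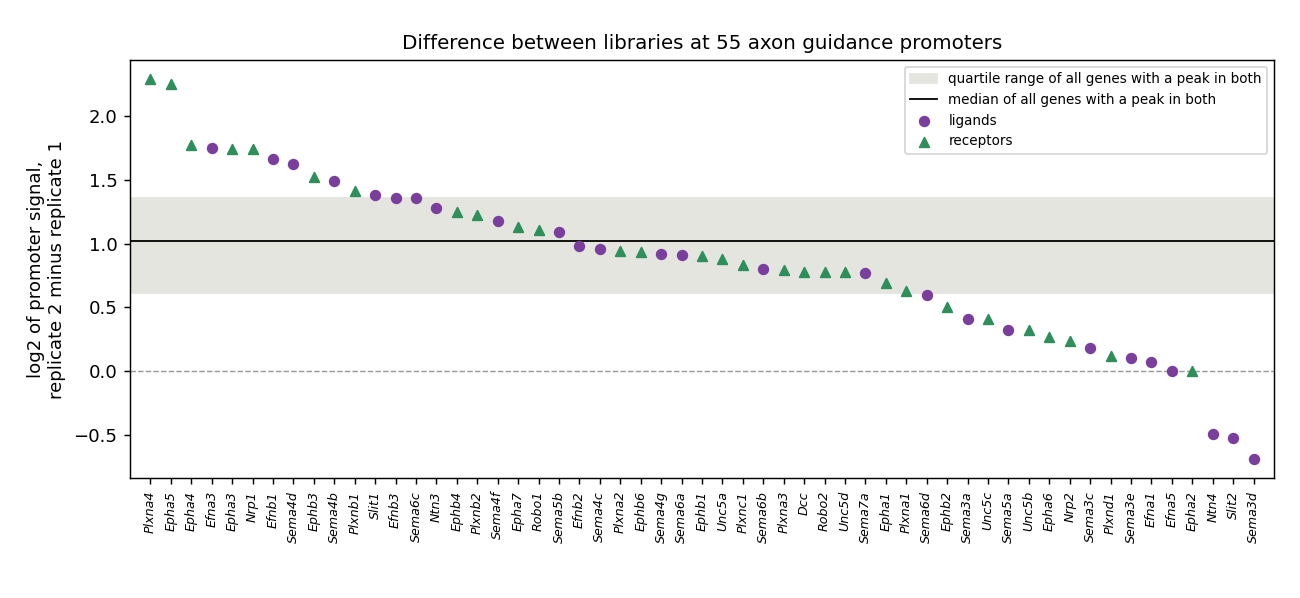
Log2 of the promoter signal in replicate 2 minus that in replicate 1 for the 55 guidance genes open in both libraries, in falling order, with ligands as circles and receptors as triangles; the band is the quartile range (0.61 to 1.36) and the line the median (1.02) of all genes open in both. Plxna4 and Epha5 are highest at 2.29 and 2.25, and 3 ligands lie below 0.

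Some guidance genes have several annotated promoters. Starts further apart than 1000 bp were counted as separate promoters, which gave 28 members 68 promoters, 27 of them open in both libraries (all genes with several promoters, 31.5% of promoters). Of these members 17 had exactly 1 promoter open in both (all such genes, 52.2%), 5 had more than 1 (11.9%) and 6 had none (36.0%). At Robo1 the starts at 0 and 255 kb were closed and the start 355 kb downstream, shown above, was open at 1.72 in replicate 2 and 0.793 in replicate 1. At Robo2 the most upstream promoter was the open one, at 1.65 and 0.961, and the other 4, 450 to 505 kb downstream, were closed.
At Sema6d the promoters at 0 and 520 kb were both open, at 1.06 and 1.67 in replicate 2 and 0.852 and 1.10 in replicate 1, and the one at 564 kb had 0.579 in replicate 2 and no peak in replicate 1. Ephb3 had a second open promoter 5.77 kb downstream at 4.88 and 1.17, and Sema4b one 11.6 kb downstream at 1.82 and 1.75. Ntn1 had weak peaks in replicate 2 at both of its promoters, 0.572 at the most upstream one and 0.659 at the one 13.8 kb downstream, and none in replicate 1 at either.

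Distal sites were counted in each gene body and 50 kb on either side, over 1000 bp from any coding start. A site was shared when peaks of both libraries overlapped by at least 1 bp, and it is not shown that a site acts on the gene whose locus holds it. The guidance loci held 272 different shared sites of 24085 (1.13%), 1042 of the 100022 distal peaks of replicate 2 (1.04%) and 373 of the 38915 of replicate 1 (0.958%). By position, 118 of the shared sites were in introns, 22 in exons, 78 upstream and 54 downstream. For 169 of them, 62.1%, the nearest coding start was that of a guidance gene. Their median value was 1.58 in replicate 2 and 1.06 in replicate 1, against 1.46 and 0.942 for all shared distal peaks, and the median log2 difference was 0.48 against 0.49. Unlike the promoters, the distal sites of guidance loci were thus close to all distal sites in strength. Footprints of both libraries were found in 223 of the 272, near the 83.8% of all shared distal peaks.

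A guidance locus held a median of 4 shared sites, against 2 for all genes, with 13 distal peaks in replicate 2 and 5 in replicate 1, against 5 and 2. The median depends on the setting: with the stricter peak list it was 2 against 1 for all genes, in the gene body alone 1 against 0, and over sites nearest to the gene's own start 2 against 0. At least 1 shared site was found in 64 of the 69 loci (all genes, 71.9%), and Unc5a, Unc5d, Plxna3, Epha1 and Ephb6 had none. Guidance genes are long, and 33 of the 69 are in the longest of 5 classes of gene length, over 58.4 kb. Within that class they held a median of 4 shared sites against 2, but 8.65 sites per Mb of locus against 10.2. In the other classes the guidance loci held more per Mb than all genes, with 21.9 against 13.5 (13 members, the next longest), 17.2 against 16.1 (14 members), 54.2 against 9.4 (8 members) and 76.5 against 9.71 (1 member). Over all 69 loci the median was 16.1 per Mb against 9.75. For genes of up to 12 kb, most of the locus is the 50 kb on either side. Among them, the gene's own start was nearest for 2 of 8 sites at Efna4, 1 of 8 at Efnb3 and 1 of 7 at Ntn5. It was nearest for 0 of 5 at Efna1 and 4 of 7 at Efna3. Sites in more than 1 of the loci of Efna1, Efna3 and Efna4 were counted in each.

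**Figure D4:**
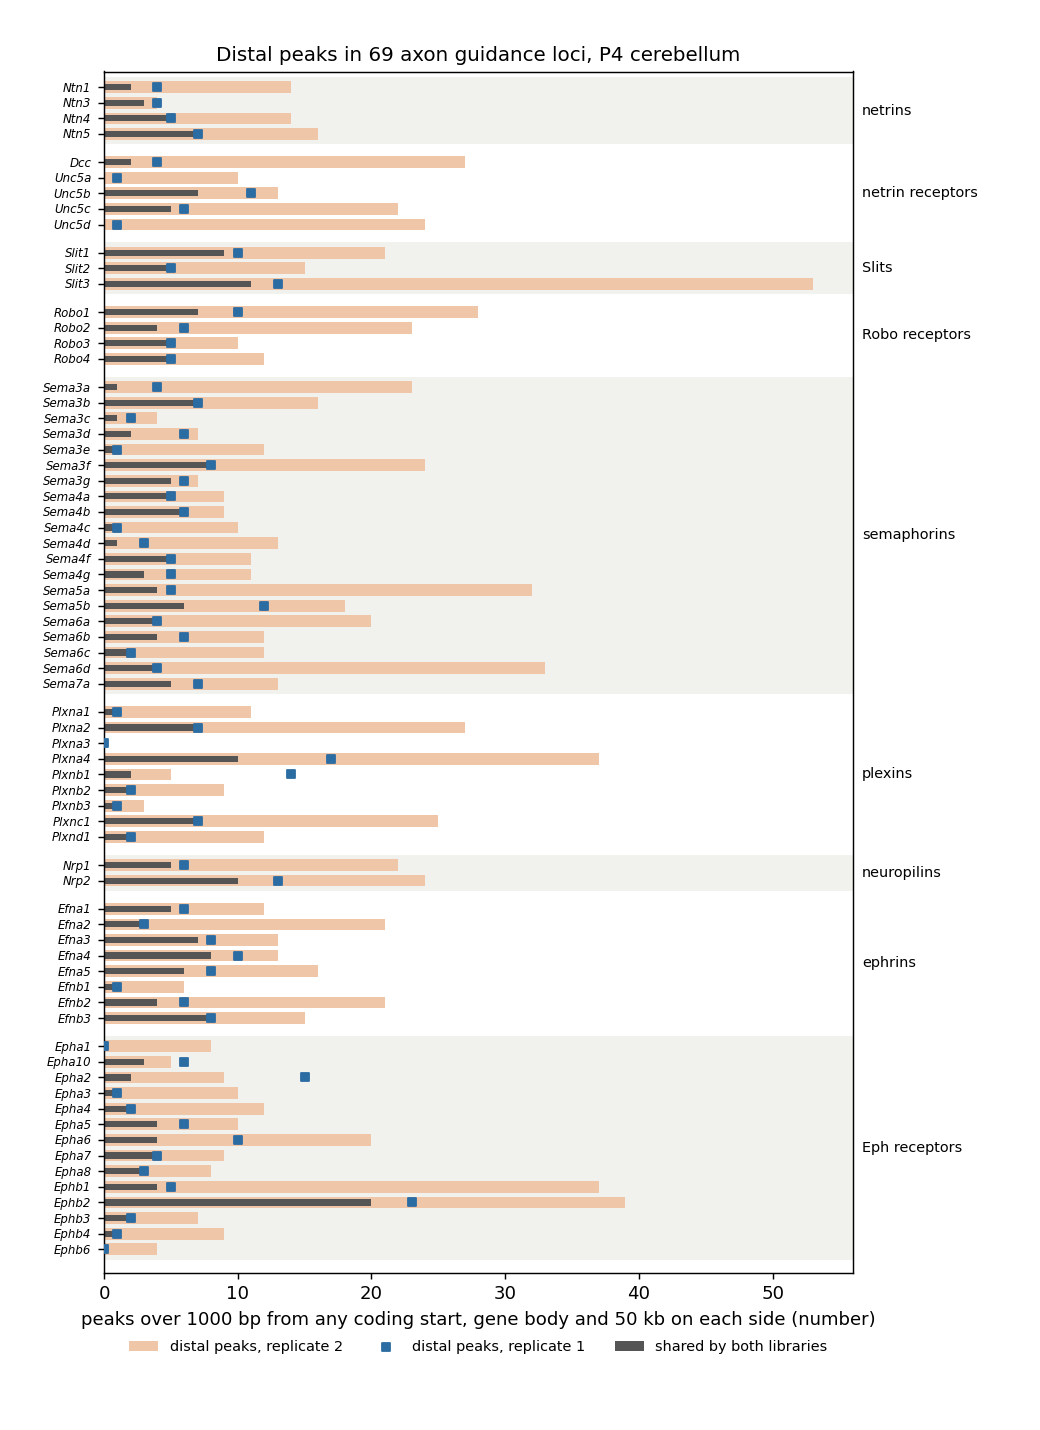
Number of distal peaks in the locus of each guidance gene, by family, with replicate 2 as pale bars, replicate 1 as squares and sites shared by both as dark bars. Ephb2 has the most shared sites, 20, and Slit3 the most peaks in replicate 2, 53; at Plxnb1, Epha2 and Epha10 the square lies beyond the bar.

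Ephb2 had the most shared sites, 20, with 39 distal peaks in replicate 2 and 23 in replicate 1. Of these sites 9 lay in introns, 4 in exons, 4 upstream and 3 downstream, and its own start was the nearest for 10. The strongest, printed above, is 157 kb downstream of the start with 4.80 in replicate 2 and 3.86 in replicate 1, and another at 187 kb had 4.42 and 2.93. Both had higher values than its promoter, at 2.52 and 1.79.
Slit3 had 11 shared sites, 10 of them in introns, and its own start was the nearest for 4. It had 53 distal peaks in replicate 2 against 13 in replicate 1, while its promoter was open in replicate 2 alone. Nrp2 had 10 shared sites, all nearest to its own start, with 24 and 13 distal peaks. Plxna4 had 10 as well, 7 of them nearest to its own start, with 37 and 17 distal peaks. Slit1 had 9, 6 of them nearest to its own start, with 21 and 10 distal peaks.
Efna4, Efnb3 and Sema3f had 8 each, but in crowded neighbourhoods: 7 of the 8 sites of Efna4 also lay in the loci of Efna3 or Efna1, 3 of those of Sema3f also lay in that of Sema3b, and the start of Efnb3 was the nearest for 1 of its 8.

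**Figure D5:**
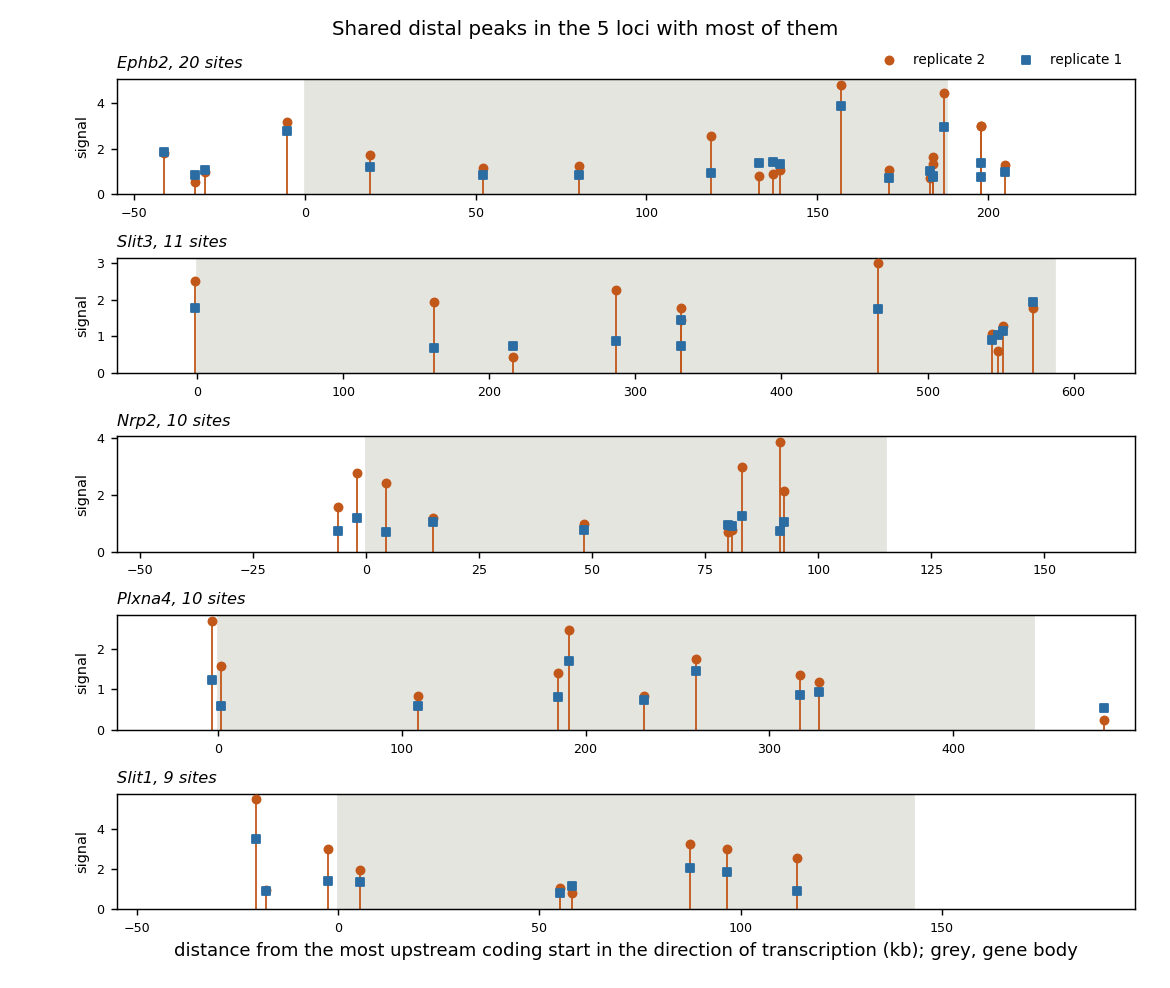
Shared distal sites of the 5 guidance loci with most of them, placed by distance (kb) from the most upstream coding start in the direction of transcription, with the deposited signal in replicate 2 as circles and in replicate 1 as squares and the gene body in grey. The Ephb2 sites at 157 and 187 kb, with 4.80 and 4.42 in replicate 2, are the highest of that gene, and the Slit1 site 20.4 kb before the start has 5.48.

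By mean percentile among all shared distal peaks, the 3 strongest sites lay in loci of genes with closed promoters. The first was 3.6 kb before the start of Sema3b (chromosome 9, 107612741 to 107612920), with 10.2 in replicate 2 and 6.05 in replicate 1, a mean percentile of 99.7. The third was also at Sema3b, 7.01 kb inside the gene, with 6.04 and 5.69, and it overlaps the start of a transcript of that gene annotated as a retained intron. None of the 3 coding promoters of Sema3b had a peak, so its locus was open at sites other than its coding starts.
The second, 19.5 kb before Efna2 (chromosome 10, 80159781 to 80160140), stood at 14.5 in replicate 2 and 3.91 in replicate 1, but the nearest coding start was that of Cirbp. The fourth was the Epha4 site printed above, at 7 and 3.97. The fifth, 71 kb from the start of Unc5b and beyond its end, had 7.20 and 2.99 and was nearest to Slc29a3, and the sixth, 20.4 kb before Slit1, had 5.48 and 3.48. The first 6 were all higher in replicate 2.

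More distal peaks in replicate 1 than in replicate 2 were found at 3 guidance loci (all genes, 8.98%): Plxnb1 with 5 in replicate 2 and 14 in replicate 1, Epha2 with 9 and 15, and Epha10 with 5 and 6. At Plxnb1, 12 peaks of replicate 1 alone stood in a stretch of 6.1 kb in the gene body (chromosome 9, 109112220 to 109118320), 8 of them in exons, with values of 0.103 to 0.413. At Epha2, 12 stood in a stretch of 11.5 kb beyond the gene (chromosome 4, 141351491 to 141363000), with values of 0.181 to 0.393. Replicate 2 had 0 peaks in either stretch, and the values are below the median of the distal peaks of replicate 1, 0.658.

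Short sequences were counted on either strand in the 75 RefSeq promoters of the 59 members that matched the promoter table by symbol, 300 bases each, beside all 20054 promoters of the table. GGGCGG, the GC box, was found in 53 of the 75, or 70.7%, against 47.9% of all. AGGGGGC, also rich in G and C, was in 24% against 13.4%. The median CpG ratio was 0.691 for the 69 members and 0.566 for all genes. The promoters compared were not matched for CpG, so these shares do not separate the sequences from CpG content. CCGGAAG, the core of Ets factor sites, was in 2 (2.67%, all promoters 11.9%), CAGATG, an E-box, in 5 (6.67%, all 14.3%), and GCATGCGC, the Nrf1 core, in 0 (all 3.65%). The E-box CAGCTG was in 16% against 15.8%. Among the printed stretches GGGCGG is in those of Ephb3 and Efnb2, which were open, in those of Efna2 and Epha8, which were closed, and not in that of Robo1. In the 272 distal sites CAGCTG was in 20.6% against 16.9% of all shared distal peaks. TTGGC, part of the site of nuclear factor I, was in 33.1% of these sites against 39.1%. In the promoters TTGGC was in 38.7% against 48.3%. A match is a description of the letters and not evidence that a factor binds.

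As a set, genes that act with these cues had stronger promoters. The list holds 87 co-receptors, adhesion partners and signalling proteins of axon guidance, such as Neo1, a relative of Dcc, and the kinase gene Gsk3b. It was chosen with earlier results of these data known. Of the 87, 81 were open in both libraries (all genes, 58.9%), 85 in replicate 2 (65.0%) and 81 in replicate 1 (59.9%). Flrt1 and Fes were closed in both (all genes, 34.0%). The open genes of the list had a median percentile of 54.3 in replicate 2 and 51.7 in replicate 1. The open ligands and receptors had 31.1 and 26, and all open genes 50 and 50. The spread was wide, with mean percentiles over both libraries from 8.65 at Vav3 to 96.6 at Gsk3b. Several surface and secreted partners ranked low, such as Ntng1 at 11.7, Dscam and Chl1 at 17.2 and Boc at 21.6. Others ranked high, such as Rgmb at 93, Dag1 at 90.5 and Ncam1 at 76.7. The surface and signalling parts were not compared. L1cam, Ntng2, Lrrc4 and Mical1 were open in replicate 2 alone (all genes, 6.10%). A locus on this list held a median of 3 shared distal sites, against 4 for the ligands and receptors and 2 for all genes.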

How the data were processed

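DNase-seq was deposited for 2 libraries of 1 group. Per the labels' description and its deposited text files, peaks, FDR intervals and footprints were derived from the alignments of each library alone to mm10; aligner and callers are not given in the sources used. The signal of each peak was normalised for depth by the authors, by a factor not given. The deposited q-value (FDR) intervals are those under 0.05. Each footprint was deposited with the same value, so positions alone were used.

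The less strict of the deposited peak lists (131518 and 61896 peaks in replicates 2 and 1) was used. Peak positions, values and overlaps were computed with Python 3.11.15, numpy 2.4.6 and pandas 2.3.3, checked on simulated intervals with known answers. Distal peaks and loci were defined as in the text. The files hold no read totals, so no counting intervals are given, and the SD over n = 2 includes the general difference between the libraries. Nothing in the labels says whether litters were shared.

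Genes, members and lists were chosen with earlier results of these data known. Named were, per family, the strongest and weakest promoter, members open in 1 library or closed, the extremes of distal sites and of library difference, the 6 strongest distal sites and members known from cerebellar wiring; others were chosen after their values were seen. Alternatives covered peak list, window, start, overlap, distance, locus and equal numbers of peaks.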

Additional observations from a re-analysis of the deposited data

How the results depend on the processing

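Of 40 alternative values, 32 stayed within 1.5 times the main count, or within the spread between members for the log2 difference, and 0 reversed. With the stricter peak list 46 members were open in both libraries, 155 distal sites were shared and a locus held a median of 2. A promoter window of 2000 bp gave 60 members open in both libraries (all genes, 62.2%). Counting the gene body alone gave 144 sites and a median of 1, and counting only sites nearest to the gene's own start gave 169 and 2. Leaving out 1 library gave 56 to 60 open members, 373 to 1042 distal sites and medians of 5 to 13, the higher values being those of replicate 2. The log2 median ran from 0.84 to 0.91. No paired analysis was possible because there is 1 group. The unknown depth limits what the absence of a peak shows.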

Other observations

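Footprints at guidance promoters did not follow peak strength in every case. The promoter windows of the guidance genes held a median of 5 footprints in replicate 2 and 3 in replicate 1, against 3 and 2 for all genes. Of all genes 34.0% had no promoter peak, against 8 of the 69 members, so these medians do not compare open promoters. Footprints were counted over the windows of all starts of a gene. Plxnb1 and Sema4b, with 2 promoters each, held 18 and 5 and 16 and 13. Ephb3, with 3 promoters, held 16 and 10, and Sema6d, with 3 promoters of low value, 14 and 14. Efna5 held 0 footprints in replicate 2 and 8 in replicate 1, and Epha6 held 0 and 3, although both promoters had peaks in each library and the values of Efna5 were 0.945 and 0.942.

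The single-library promoters of the ligands also held no FDR interval in the other library. Peaks and intervals come from the same alignments, so this is not separate support. Of the genes with no promoter peak in either library, 2.88% held such an interval, and the share for genes open in a single library is not given. Ntn1, Slit3, Sema3f, Sema4a and Efna4 had 223 to 790 bases under an FDR of 0.05 in replicate 2 and 0 in replicate 1, and Sema3g had 0 in replicate 2 and 132 in replicate 1.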
